A study of Mus musculus with 4 samples.

Results

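The MHC class I antigen presentation genes H2-K1, H2-D1, B2m, Tap1, Tap2, Tapbp, Psmb8, Psmb9, Psmb10 and Nlrc5 were followed through single-cell RNA sequencing of C3H10T1/2 cells, a mouse mesenchymal progenitor line. The genes were chosen by name, as 10 of the 32285 genes counted, and all 10 were found in the files. The 4 libraries came from progenitors carrying a lentiviral human histone H3 transgene with epitope tags, driven by an EF1 promoter and kept under puromycin selection, which encoded either wild-type histone (H3WT) or histone with arginine 26 changed to cysteine (H3R26C). Each genotype was measured after 5-azacytidine (5-Aza, an inhibitor of DNA methylation used here as a differentiation cue, 3 µM for 24 h with collection on day 28) and with the vehicle DMSO, whose day of collection is not stated in the sources used here. There was 1 library for each of the 4 conditions, so differences between libraries could not be set against a spread between replicates, and no p-value is given.

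MHC class I molecules carry short peptides from proteins made inside the cell to the cell surface, where cytotoxic T cells read them. The heavy chain pairs with beta-2-microglobulin, the peptides are cut by the proteasome and pumped into the endoplasmic reticulum by the Tap transporter, and tapasin holds the empty heavy chain next to that transporter while it is loaded. Interferons raise the whole set in most cell types, through response elements in the promoters and through the transactivator Nlrc5, and exchange the catalytic subunits of the proteasome for those of the immunoproteasome.

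Most of the genes lie close together. In GRCm38, the build of the files, with GENCODE M21 positions, H2-K1 (ENSMUSG00000061232, chr17:33996017-34000347, minus strand), Tapbp (chr17:33915899-33929292, plus), Psmb9 (chr17:34181987-34187764, minus), Tap1 (chr17:34187553-34197225, plus), Psmb8 (chr17:34197721-34201454, plus), Tap2 (chr17:34203527-34216321, plus) and H2-D1 (ENSMUSG00000073411, chr17:35262730-35267499, plus) are in the major histocompatibility complex. B2m lies at chr2:122147686-122153083 on the plus strand, Nlrc5 at chr8:94434356-94527272 on the plus strand and Psmb10 at chr8:105935735-105938444 on the minus strand. Psmb9 and Tap1 overlap at their starts on opposite strands, and without the strand setting of the counting, reads from the overlap cannot be told apart. The span of Tapbp overlaps that of Zbtb22 on the same strand, where a strand setting would not help. Those of Tap2 and Psmb8 overlap Gm20496 on the opposite strand. Only H2-K1 and H2-D1 overlap no other gene.

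Promoter windows from RefSeq (GRCm38.p6, 250 bases before to 50 after the annotated start) were matched for 8 of the 10 genes, all but Tap2 and Nlrc5. GENCODE places some starts elsewhere, and the 250 bases before the RefSeq start overlapped a GENCODE exon of the same gene in all windows but that of H2-K1. The windows of the 2 genes that make up the surface complex, H2-K1 and B2m, are shown because both hold letters that match the response element core, the kind of element through which interferons act. Each is printed up to its first exon, at chr17:34000348-34000597 (minus strand) and chr2:122147437-122147685 (plus strand), 5′ to 3′. Capitals mark matches, on either strand, to the response element core AANNGAAA, the NF-kappaB motif GGGNNTTCC, the cyclic AMP response element core TGACG and the inverted CCAAT box ATTGG.
H2-K1: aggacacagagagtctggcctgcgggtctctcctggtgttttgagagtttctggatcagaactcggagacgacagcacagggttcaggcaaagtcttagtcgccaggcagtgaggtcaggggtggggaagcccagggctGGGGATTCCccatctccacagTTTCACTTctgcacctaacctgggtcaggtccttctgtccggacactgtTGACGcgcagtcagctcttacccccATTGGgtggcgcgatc
B2m: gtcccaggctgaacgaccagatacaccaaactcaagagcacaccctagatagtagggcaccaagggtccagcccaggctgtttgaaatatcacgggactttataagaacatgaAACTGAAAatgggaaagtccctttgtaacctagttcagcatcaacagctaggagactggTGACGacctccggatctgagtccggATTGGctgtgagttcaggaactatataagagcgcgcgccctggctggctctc

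The NF-kappaB and response element matches of H2-K1 recur in H2-D1. The stretch that joins them is shown for both genes, at chr17:34000430-34000458 on the minus strand and chr17:35262923-35262951 on the plus strand. In H2-D1 the stretch lies before the RefSeq start but inside the gene as GENCODE places it, from chr17:35262730. Of the 29 bases of the stretch, 28 were identical, and the 1 difference, counted from 1 at the 5′ end with the H2-K1 base first, was A18T. These are bases of the reference, and those of the cells were not read.
H2-K1: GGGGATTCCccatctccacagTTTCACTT
H2-D1: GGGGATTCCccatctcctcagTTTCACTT

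Among the 8 windows, the response element core was in 3 (H2-K1, H2-D1 and B2m), against 24.2% of all 27025 promoter windows of that length. The NF-kappaB motif GGGNNTTCC, spelled after the sequences had been seen, was in H2-K1 and H2-D1 only, against 5.72% of windows. Other spellings of this motif were not searched, so the other windows, that of B2m among them, may hold NF-kappaB sites. TGACG was in 5 of the 8 windows, including those of Tap1 and Psmb9, against 21.02% of windows, and ATTGG was in 6, against 37.9%. The windows of Tap1 and Psmb9 overlap on opposite strands, and their TGACG matches are the same bases, as are their ATTGG matches. Each of these sites was thus counted for both genes, and the counts are not of separate sites. The gamma-activated site motif TTCNNNGAA was in Psmb8 alone, against 8.47% of windows. Within a window, no match overlapped another. These are matches of letters and no evidence that a factor bound there.

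Cells were taken where a barcode had at least 5000 UMIs, at least 1500 genes and at most 20% of UMIs from mitochondrial genes. In H3WT this kept 3710 cells with DMSO and 5993 with 5-Aza, and in H3R26C 4727 and 7619, with 84060490 to 110712425 UMIs per library. The DMSO libraries were deeper per cell, with a median of 22420 and 16598 UMIs against 13149 and 13123 after 5-Aza. All 11 mesenchymal markers were above 1 CPM (UMIs of a gene in 1000000 UMIs) in each library. The library pairs shared between 24 and 58 kept barcodes. The transgene is a human sequence and was not counted here, so the genotype labels were not checked. Levels are CPM summed over the kept cells of a library, and the brackets after them hold exact 95% Poisson intervals, which cover counting error only.

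The 2 classical heavy chains showed the widest spread over the libraries among the genes counted above 1 CPM in all 4. H2-K1, which presents peptides to CD8 T cells, stood at 61.4 CPM [59.8, 63.1] in H3WT DMSO, 216 [213, 219] in H3WT 5-Aza, 122 [119, 124] in H3R26C DMSO and 503 [499, 508] in H3R26C 5-Aza. H2-D1, the other classical heavy chain, followed the same order at 51.9 [50.4, 53.5], 122 [120, 125], 80.9 [79.0, 82.9] and 253 [250, 256] CPM. For both genes H3R26C 5-Aza was highest, then H3WT 5-Aza, then H3R26C DMSO, with H3WT DMSO lowest and no overlap of the counting intervals. The reference genome is C57BL/6J and the line comes from C3H mice, which carry another H2 haplotype, so the UMIs of these genes are those of reads that matched a foreign allele. Of the 60-base windows of the longest transcript, 3.86% for H2-K1 and 9.74% for H2-D1 also occur in transcripts of other genes. These were most often H2-D1, H2-Q1 and H2-Q6 for H2-K1, and H2-Q1, H2-Q7 and Gm7030 for H2-D1. The split of reads among these genes is thus uncertain.

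B2m, the light chain that all class I molecules need, had the most UMIs of the 10 and the smallest ratio between its highest and lowest library. It stood at 624 CPM [618, 629] in H3WT DMSO, 774 [768, 780] in H3WT 5-Aza, 603 [597, 608] in H3R26C DMSO and 704 [699, 709] in H3R26C 5-Aza. The library with the most heavy chain RNA was thus second for B2m, below H3WT 5-Aza.

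The transporter and loading genes were ordered differently. Tap1, one half-transporter of the peptide pump, stood at 6.96 CPM [6.42, 7.54] in H3WT DMSO, 9.43 [8.78, 10.104] in H3WT 5-Aza, 11.6 [10.9, 12.4] in H3R26C DMSO and 18.8 [18.0, 19.6] in H3R26C 5-Aza. Its partner Tap2 stood at 49.8 [48.4, 51.4], 57.5 [55.9, 59.1], 74.9 [73.1, 76.8] and 81.3 [79.6, 83.0] CPM in the same order of libraries. Tapbp, which encodes tapasin, stood at 91.4 [89.4, 93.4], 83.5 [81.6, 85.5], 123 [121, 125] and 111 [109, 113] CPM. All 3 were higher in both H3R26C libraries than in both H3WT libraries, and Tapbp was lower after 5-Aza in both genotypes.

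Of the immunoproteasome subunits, Psmb8 stood at 19.3 CPM [18.4, 20.3] in H3WT DMSO, 32.8 [31.5, 34.0] in H3WT 5-Aza, 36.3 [35.0, 37.6] in H3R26C DMSO and 78.5 [76.8, 80.1] in H3R26C 5-Aza. Psmb9 stood at 13.2 [12.5, 14.0], 19.2 [18.3, 20.1], 27.3 [26.2, 28.5] and 41.3 [40.1, 42.5] CPM in the same order. Psmb10 stood at 39.6 [38.3, 41.0], 44.0 [42.6, 45.5], 43.4 [42.0, 44.9] and 31.9 [30.9, 33.0] CPM. Psmb8 and Psmb9 were highest in H3R26C 5-Aza, where Psmb10 was lowest, and for Psmb10 the intervals of H3WT 5-Aza and H3R26C DMSO overlapped.

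Nlrc5, the transactivator of class I genes, was close to the limit of detection. It had 37 UMIs in H3WT DMSO, 104 in H3WT 5-Aza, 46 in H3R26C DMSO and 259 in H3R26C 5-Aza, which gave 0.43 [0.30, 0.59], 1.23 [1.01, 1.49], 0.55 [0.40, 0.73] and 2.34 [2.06, 2.64] CPM. The 2 DMSO libraries overlapped in their intervals, and both 5-Aza libraries were above them.

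**Figure D1:**
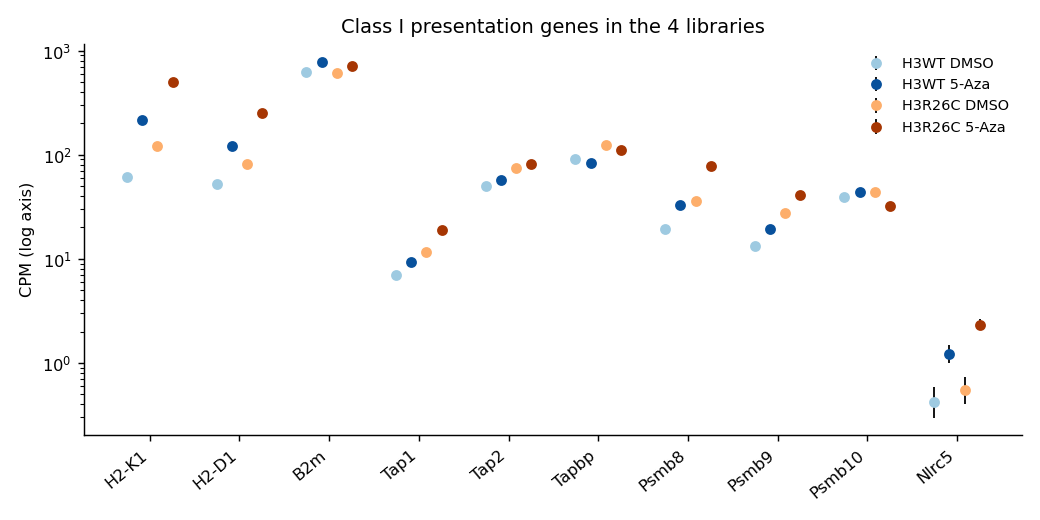
CPM of the 10 genes on a log axis, as points with exact 95% Poisson intervals, in H3WT DMSO, H3WT 5-Aza, H3R26C DMSO and H3R26C 5-Aza (1 library each). H2-K1 spans 61.4 to 503 CPM and B2m 603 to 774 CPM. Most intervals are smaller than the points, and those of Nlrc5 are the widest.

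The first comparison asks what 5-Aza went with in H3WT cells, by the ratio of CPM between the 5-Aza and the DMSO library, with an exact conditional interval for counting error. A gene entered where it had at least 1 CPM in either library and was called at a ratio of 2 or more, or 0.5 or less. H2-K1 was 3.51-fold higher after 5-Aza [3.41, 3.62], H2-D1 2.35-fold [2.27, 2.44] and Nlrc5 2.89-fold [1.97, 4.34]. On its 37 and 104 UMIs, Nlrc5 had 1.57 with a pseudocount of 1 CPM, under the limit. With cells thinned to 5000 UMIs it had 5.57, on 4 DMSO cells and 35 5-Aza cells that still held a UMI. These 3 of the 10 genes were past 2-fold, where 6.77% of all 12622 genes entered were, and none was past 2-fold lower, against 0.666%. Nlrc5, at 0.43 CPM with DMSO, entered only through its 5-Aza library. It could thus be counted only by being higher after 5-Aza, and its call adds no support. The ratio of H2-K1 was above that of 95.7% of genes. Of the other 7, Psmb8 (1.70), Psmb9 (1.45), Tap1 (1.35), B2m (1.24), Tap2 (1.15) and Psmb10 (1.11) had ratios above 1, and Tapbp had 0.91. The median ratio of the 10 was 1.40, beside 1.03 over all genes.

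In H3R26C cells, the ratio of 5-Aza to DMSO was 4.13 for H2-K1 [4.05, 4.22], 3.12 for H2-D1 [3.04, 3.20], 4.28 for Nlrc5 [3.11, 5.98] and 2.16 for Psmb8 [2.07, 2.25]. With a pseudocount of 1 CPM, Nlrc5 had 2.16. These 4 of the 10 genes were past 2-fold higher, where 11.2% of 12974 genes were, and none past 2-fold lower, against 4.70%. Here too Nlrc5, at 0.55 CPM with DMSO, entered only through its 5-Aza library, so its call adds no support. Psmb10 was lower after 5-Aza, at a ratio of 0.73 [0.70, 0.77], and Tapbp at 0.90 [0.88, 0.93]. Tap1 (1.62), Psmb9 (1.51), B2m (1.17) and Tap2 (1.08) lay between. The median of the 10 was 1.57, beside 0.98 over all genes.

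The 2 responses were set side by side as the H3R26C ratio divided by the H3WT ratio. With 1 library per condition this could not be tested. The value was 1.32 for H2-D1, 1.28 for Psmb8, 1.197 for Tap1 and 1.18 for H2-K1. For Nlrc5 it was 1.48, but the counting intervals of its ratios overlapped between the genotypes, [1.97, 4.34] in H3WT and [3.11, 5.98] in H3R26C. With thinning the ratios were 5.57 and 6.20, on 4 and 10 DMSO cells with a UMI of Nlrc5. The value was between 0.94 and 1.04 for Psmb9, Tapbp, B2m and Tap2, and 0.66 for Psmb10, whose ratio was above 1 in H3WT and below 1 in H3R26C. The 5-Aza ratios of all genes were spread more widely in H3R26C. Among all genes entered, H2-K1 lay above 95.7% in H3WT and 93.2% in H3R26C, and H2-D1 above 94.3% and 92.1%. Psmb8 lay above 91.3% and 89.6%, and Tap1 above 85.9% and 85.4%. Relative to all genes, H2-K1, H2-D1, Psmb8 and Tap1 thus did not stand higher in H3R26C.

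Without 5-Aza, the histone genotypes differed mostly by less than 2-fold. Psmb9 was 2.07-fold higher in H3R26C DMSO than in H3WT DMSO [1.93, 2.22], H2-K1 1.98-fold [1.92, 2.05] and Psmb8 1.88-fold [1.77, 1.99]. Nlrc5 was below 1 CPM in both libraries, and of the 9 genes that entered, 1 was past 2-fold higher and none past 2-fold lower, against 3.36% and 1.26% of 12250 genes. This count rests on the limit, since 6 of the genes were past 1.5-fold and none past 2-fold where CPM were averaged per cell. The lowest of these 6, Tap2, lay above 92.6% of all genes entered. The ratios were 1.67 for Tap1, 1.56 for H2-D1, 1.503 for Tap2, 1.34 for Tapbp, 1.10 for Psmb10 and 0.97 for B2m. The median of the 9 was 1.56, beside 1.03 over all genes.

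After 5-Aza, Psmb8 was 2.39-fold higher in H3R26C than in H3WT [2.29, 2.501], H2-K1 2.33-fold [2.29, 2.37], Psmb9 2.15-fold [2.03, 2.28] and H2-D1 2.06-fold [2.02, 2.11]. These 4 of the 10 were past 2-fold higher, where 7.70% of 13010 genes were, and none past 2-fold lower, against 4.33%. Tap1 lay at the limit, with 1.99 [1.84, 2.17], and Nlrc5 at 1.90 [1.51, 2.41]. Without the muscle-like cells, defined below, Tap1 had 2.01 and Nlrc5 2.02, so the count rests on the limit. Tap2 and Tapbp had ratios of 1.41 and 1.33, while B2m had 0.91 [0.90, 0.92] and Psmb10 0.73 [0.69, 0.76]. The median of the 10 was 1.95, beside 0.98 over all genes. The comparisons share libraries, so their values are not independent.

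**Figure D2:**
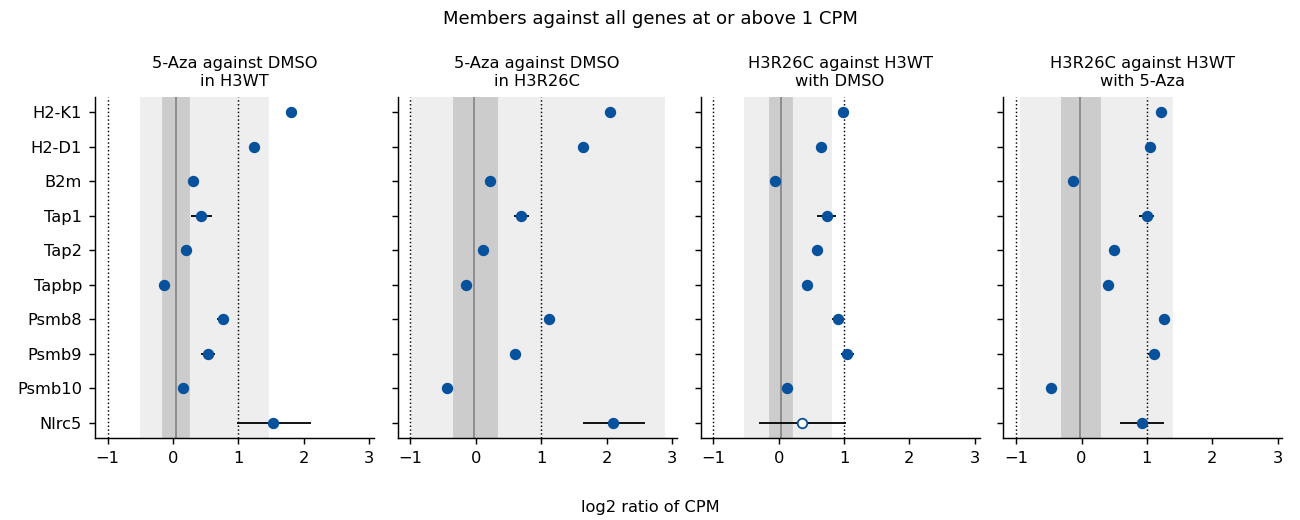
Log2 ratios of CPM for the 10 genes (rows) in the 4 comparisons of libraries (panels), as points with exact 95% intervals for counting error. The dark and light bands hold the central 50% and 90% of all genes at or above 1 CPM, the grey line their median, and the dotted lines 2-fold, and the open point is Nlrc5 below 1 CPM in both libraries. H2-K1 lies above the light band in H3WT after 5-Aza and inside it in H3R26C after 5-Aza, where the band of all genes is wider.

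Markers of other cell types were low but moved with 5-Aza. The summed level of 12 leukocyte markers was 7.51 CPM in H3WT DMSO, 24.2 in H3WT 5-Aza, 5.28 in H3R26C DMSO and 33.6 in H3R26C 5-Aza, mostly from Fcer1g and Cd68, and Ptprc, which marks all leukocytes, stood at 0, 0.24, 0 and 1.26 CPM. The sum of 5 epithelial markers ran from 0.33 to 2.24 CPM in H3WT and from 0.30 to 17.5 CPM in H3R26C, that of 5 endothelial markers from 4.69 to 8.23 CPM over the libraries, and that of 8 adipocyte markers stood at 85.0, 285, 163 and 210 CPM. Without the cells that held a UMI of any of 7 leukocyte markers, which were 6.92% and 12.0% of the H3WT and H3R26C 5-Aza cells, the counts of genes past 2-fold higher stayed at 3, 4, 1 and 4, and the ratio of H2-K1 was 3.41 in H3WT and 4.12 in H3R26C. These 7 were a part of the 12 leukocyte markers and were found in 0.38% of the cells of either DMSO library. Cells that held only the remaining leukocyte markers stayed in, so their part in the results was not tested. The part of the markers of the other cell types was not tested either.

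H2-K1 was found in more cells of the libraries in which its CPM was higher. To compare shares of cells across depths, the UMIs of every cell were drawn down to 5000. H2-K1 then had a UMI in 24.2% of H3WT cells with DMSO and 56.2% with 5-Aza, and in 41.0% and 80.6% of H3R26C cells, against 65.5%, 82.6%, 75.4% and 94.6% without thinning. H2-D1 followed, with 22.9%, 43.0%, 32.1% and 63.9% of thinned cells, and without thinning 61.9%, 71.3%, 68.3% and 87.3%. B2m was in 91.9% to 95.1% of thinned cells and 98.0% to 99.5% of unthinned cells in all 4 libraries. Psmb8 was in 8.36%, 13.6%, 14.2% and 25.9% of thinned cells and in 30.7%, 29.5%, 38.1% and 46.2% without thinning, where the deeper H3WT DMSO cells passed those of H3WT 5-Aza. Nlrc5 was in 0.11%, 0.58%, 0.21% and 1.27% of thinned cells. No cell type in these cultures is known to lack class I RNA, so no background of free RNA was taken off these shares.

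Per thinned cell, the UMIs of the 10 genes together had a median of 5 in H3WT DMSO, 6 in H3WT 5-Aza, 5 in H3R26C DMSO and 8 in H3R26C 5-Aza. B2m, with the most UMIs of the 10 genes, weighs most in this sum. The 95th percentile was 9, 14, 11 and 21 UMIs and the highest cell had 16, 38, 26 and 54. The share of cells in which 5 or more of the 10 genes were found was 3.48%, 12.8%, 11.5% and 28.7% in that order. The upper part of the distribution thus differed more between the libraries than the median did.

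The proteasome genes allow the immunoproteasome subunits to be read against the constitutive subunits whose place they take. UMIs of Psmb8 were 7.16% of those of Psmb8 and Psmb5 together in H3WT DMSO, 10.5% in H3WT 5-Aza, 12.0% in H3R26C DMSO and 20.7% in H3R26C 5-Aza (exact binomial intervals [6.83, 7.49], [10.13, 10.88], [11.6, 12.5] and [20.3, 21.05]). UMIs of Psmb9 were 6.55%, 8.34%, 10.8% and 13.5% of those of Psmb9 and Psmb6. UMIs of Psmb10 were 36.3%, 37.1%, 35.2% and 33.0% of those of Psmb10 and Psmb7 ([35.4, 37.3], [36.2, 38.1], [34.2, 36.1] and [32.1, 33.9]). The shares of Psmb8 and Psmb9 followed the same order of libraries. That of Psmb10 was lowest in H3R26C 5-Aza, and its interval in H3WT DMSO overlapped those of H3WT 5-Aza and H3R26C DMSO. The shares compare libraries and are no stoichiometry, since genes differ in how well they are captured. Psmb5 stood at 251, 279, 265 and 301 CPM and Psmb6 at 188, 211, 227 and 265 CPM, while Psmb7 stood at 69.4, 74.5, 80.1 and 64.8 CPM and was, like Psmb10, lowest in H3R26C 5-Aza.

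**Figure D3:**
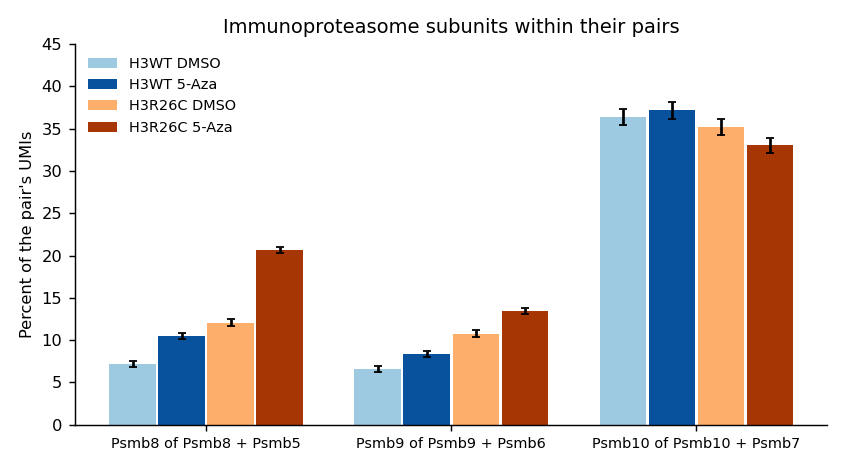
UMIs of Psmb8, Psmb9 and Psmb10 as a percentage of the UMIs of each pair of immunoproteasome and constitutive subunit, as bars with exact 95% binomial intervals, in the 4 libraries. Psmb8 reaches 20.7% in H3R26C 5-Aza from 7.16% in H3WT DMSO, while Psmb10 stays between 33.0% and 37.1%.

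The wider pathway was read from lists chosen with earlier results of these data known. Of 19 other class I heavy chains, 17 were in the files. Past 2-fold higher were 6 of 11 that entered in H3WT after 5-Aza, 9 of 12 in H3R26C after 5-Aza, 6 of 10 in H3R26C against H3WT with DMSO and 6 of 12 after 5-Aza, and none was past 2-fold lower. All genes entered were past 2-fold higher in 6.77%, 11.2%, 3.36% and 7.70% of cases and lower in 0.666%, 4.70%, 1.26% and 4.33%, in the same comparisons. More heavy chains entered with a 5-Aza library than between the DMSO libraries, so some entered only through a 5-Aza library. Against DMSO these could only be counted as higher, and their calls add no support. H2-Q4 stood at 33.8 CPM in H3WT DMSO, 132 in H3WT 5-Aza, 79.7 in H3R26C DMSO and 433 in H3R26C 5-Aza, the order of H2-K1. The non-classical gene H2-T23, whose product is a ligand of natural killer cell receptors, stood at 27.7, 43.6, 57.0 and 127 CPM, and H2-M3, which presents formylated peptides, at 3.41, 11.2, 7.84 and 22.9 CPM. The H2-Q genes share sequence with H2-K1 and H2-D1, so these values are not independent of theirs.

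Genes of the general machinery were not past the fold limit. None of the 10 genes of peptide loading and trimming, the 3 constitutive catalytic subunits, the 12 other 20S genes or the 4 proteasome activators was past 2-fold in any of the 4 comparisons. Of all genes entered, 6.77%, 11.2%, 3.36% and 7.70% were past 2-fold higher and 0.666%, 4.70%, 1.26% and 4.33% lower. Lists of this size would thus hold few such genes in any case. The activators Psme1 and Psme2, which open the proteasome under interferon, stood at 125, 129, 165 and 182 CPM and at 201, 224, 250 and 286 CPM. Of the transcription regulators, Irf9, which binds response elements, stood at 16.9, 26.9, 18.4 and 42.8 CPM and was 2.32-fold higher in H3R26C after 5-Aza (it was named after its values were seen). Irf1, which binds related elements, stood at 34.0, 45.8, 39.7 and 35.0 CPM, and Rfx5, which binds the X box of class I and class II promoters, at 12.5, 10.9, 11.4 and 8.26 CPM. None of 10 interferon ligand genes reached 1 CPM in any library. Of 9 class II genes, 3 entered, among which Cd74, the invariant chain, was 2.21-fold higher in H3R26C than in H3WT with DMSO and 2.17-fold after 5-Aza, and H2-DMb1, a peptide editor, was 2.75-fold lower in H3R26C 5-Aza than in H3R26C DMSO.

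Of 24 listed interferon-stimulated genes, past 2-fold higher were 14 of 21 in H3WT after 5-Aza, 18 of 22 in H3R26C after 5-Aza, 2 of 20 in H3R26C against H3WT with DMSO and 16 of 22 after 5-Aza. Over all genes the shares were 6.77%, 11.2%, 3.36% and 7.70% in the same comparisons. More of the list entered with a 5-Aza library than between the DMSO libraries, so some genes entered only through a 5-Aza library. Against DMSO they could only be counted as higher, and their calls add no support. By the rule of the largest ratios above 10 CPM, the leading genes of the lists were Isg15, a ubiquitin-like protein (5.00-fold), Rtp4 (3.99-fold) and H2-Q4 (3.90-fold) in H3WT after 5-Aza, and Ifi44 (22.2-fold), Isg15 (15.8-fold) and Usp18, which removes Isg15 from proteins (11.6-fold), in H3R26C after 5-Aza. With DMSO, Ifi27l2a (3.21-fold), H2-Q4 (2.36-fold) and Cd74 led in H3R26C against H3WT, and after 5-Aza Ifi44 (10.4-fold), Ifi27l2a (10.3-fold) and Irf7, a regulator of interferon genes (7.17-fold), led. Rtp4, Ifi44, Usp18, Cd74 and Irf7 reached 10 CPM only in the library where they were higher. The rule could thus name them only as higher, and their ratios add no support. Ifi44, at 0.62 CPM in H3R26C DMSO, entered against H3R26C 5-Aza only through the latter. Of 11 guanylate-binding proteins and immunity GTPases, which follow interferon gamma, 2 of 10, 9 of 11, 4 of 10 and 10 of 11 were past 2-fold higher in the 4 comparisons. More of these too entered in H3R26C after 5-Aza than between the DMSO libraries, so the same limit holds.

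Within a library, class I RNA was read against interferon-stimulated RNA, a list that holds none of the 10 genes. Cells other than muscle-like ones (defined below by sarcomeric RNA) were binned by the UMIs of the 24 interferon-stimulated genes after thinning, in bins added after the data had been seen. Cells with 20 or more such UMIs made up 0.16% of H3WT cells with DMSO and 0.84% with 5-Aza, and 0.30% and 22.4% of H3R26C cells. The lowest bin, too, held unlike parts of the libraries. In the third of all kept cells with the fewest such UMIs, their median was 4 in H3R26C 5-Aza. It was 1 in H3WT 5-Aza and in H3R26C DMSO, and 0 in H3WT DMSO. A sum over the 10 genes rests mostly on a few of them. Over all cells of H3R26C 5-Aza, B2m, H2-K1 and H2-D1 stood at 704, 503 and 253 CPM, and the next gene, Tapbp, at 111. In H3WT DMSO, B2m stood at 624 CPM and the next, Tapbp, at 91.4. The summed level of the 10 genes stood at 973 CPM in H3R26C 5-Aza cells with 0 to 1 of these UMIs, 1284 with 2 to 4, 1640 with 5 to 9, 1962 with 10 to 19 and 2529 with 20 or more. In H3WT 5-Aza it stood at 1158, 1308, 1532, 1889 and 2391 CPM. In both 5-Aza libraries each bin was above the one before it by more than the counting intervals. From 0 to 1 up to 10 to 19 UMIs, it went from 907 to 1370 CPM in H3WT DMSO and from 1036 to 1514 CPM in H3R26C DMSO.

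H2-K1 differed between the libraries within these bins, which are ranges of a sum of few UMIs and do not hold cells of equal amounts. With 0 to 1 of these UMIs, H2-K1 stood at 55.6 CPM in H3WT DMSO, 178 in H3WT 5-Aza, 105 in H3R26C DMSO and 277 in H3R26C 5-Aza. In this bin the ratio of 5-Aza to DMSO was 3.20 in H3WT [3.03, 3.38] and 2.65 in H3R26C [2.49, 2.81], and with 5 to 9 UMIs it was 3.58 [3.25, 3.95] and 3.11 [2.96, 3.26]. Over all cells other than muscle-like ones it was 3.53 and 4.22, so the ratio in H3R26C was lower in each of these bins than over the cells together. H2-K1 was higher after 5-Aza within each of the 4 bins that both libraries of a genotype filled, the highest of which held 21 cells of H3WT DMSO.

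Psmb8 and B2m behaved otherwise in these bins. With 0 to 1 interferon-stimulated UMIs, Psmb8 stood at 16.9 CPM in H3WT DMSO, 19.7 in H3WT 5-Aza, 30.7 in H3R26C DMSO and 29.3 in H3R26C 5-Aza, and the ratio of 5-Aza to DMSO was 1.16 in H3WT [1.02, 1.32] and 0.95 in H3R26C [0.81, 1.12]. With 20 or more, it stood at 128 CPM in H3WT 5-Aza and 139 in H3R26C 5-Aza, a ratio of 1.08 [0.88, 1.35], against 2.42 over all cells other than muscle-like ones. B2m stood at 359 CPM in H3R26C 5-Aza cells with 0 to 1 of these UMIs, against 668 in H3WT 5-Aza, 572 in H3R26C DMSO and 595 in H3WT DMSO. H3R26C 5-Aza was below H3WT 5-Aza for B2m in each of the 5 bins, at ratios from 0.54 to 0.78. Psmb10 was also lower in H3R26C 5-Aza than in H3WT 5-Aza in each bin, at 21.6 against 36.2 CPM in the lowest and 46.3 against 119 in the highest, which held 49 cells of H3WT 5-Aza.

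**Figure D4:**
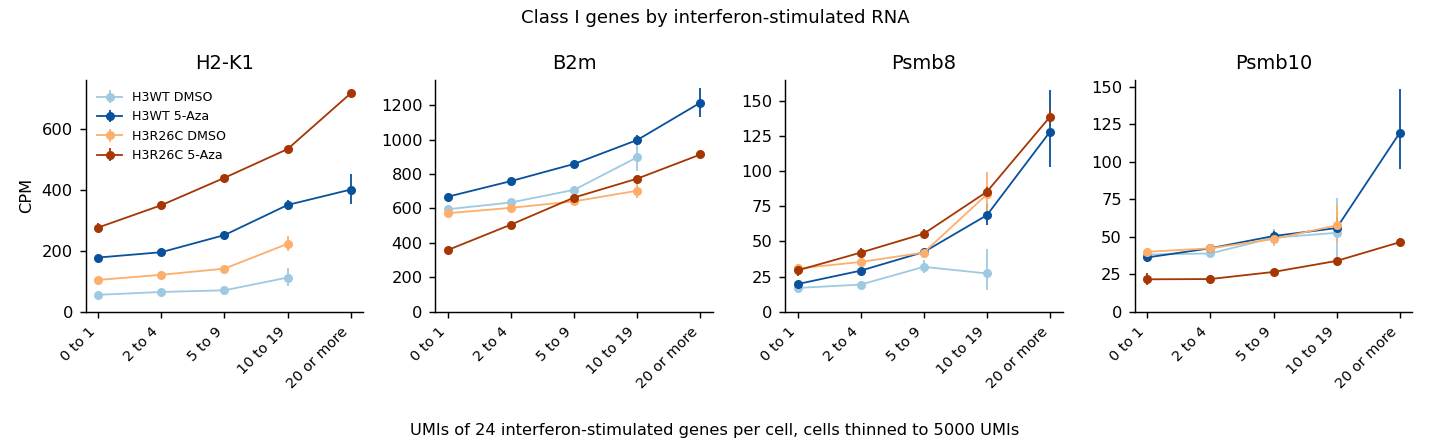
CPM of H2-K1, B2m, Psmb8 and Psmb10 (panels) in cells other than muscle-like ones, binned by the UMIs of 24 interferon-stimulated genes per cell after thinning to 5000 UMIs, as points with exact 95% Poisson intervals. Lines join the bins of a library, and bins under 20 cells are left out. H2-K1 keeps its order of libraries in the 4 lower bins, Psmb8 lies close together in the 2 5-Aza libraries at 20 or more, and B2m and Psmb10 are lower in H3R26C 5-Aza than in H3WT 5-Aza throughout.

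Muscle-like cells were those with 31 sarcomeric genes at 1% or more of their UMIs. They numbered 171 (2.85%) in H3WT 5-Aza and 232 (3.05%) in H3R26C 5-Aza, with none in either DMSO library (an upper limit of 0.081% of H3WT and 0.063% of H3R26C cells). The limit cuts a range, with 15 and 22 cells between 0.8% and 1% and 6 and 11 between 1% and 1.2%. Their median depth was 13181 UMIs in H3WT 5-Aza and 18362.5 in H3R26C 5-Aza, and their mesenchymal markers stood at 5700 and 5088 CPM in sum, against 15312 and 16052 in the other cells. The comparison asks how antigen presentation RNA stands in cells that have taken up the muscle programme.

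Tap1, Tap2, Tapbp, Psmb8 and Psmb9 were past 2-fold lower in muscle-like than in other cells of both genotypes. In H3WT 5-Aza, Psmb9 was 6.52-fold lower in muscle-like than in other cells, at 3.02 against 19.7 CPM, on 8 UMIs. Tap1 was 5.12-fold lower at 1.89 against 9.67 CPM, on 5 UMIs, and Psmb8 4.04-fold lower at 8.31 against 33.5 CPM. Tap2 was 3.31-fold lower and Tapbp 2.45-fold lower. These 5 of the 10 genes were past 2-fold lower, where 18.8% of 13387 genes were. Nlrc5 alone was past 2-fold higher, against 13.8% of genes, with 10 UMIs and a ratio of 3.28 [1.53, 6.31]. The surface complex had ratios of 0.86 for H2-K1 [0.79, 0.94], 0.64 for H2-D1 and 0.68 for B2m, and Psmb10 had 0.73 [0.58, 0.91]. These values rest on the limit of sarcomeric RNA, since at 5% H2-K1 had 0.54, H2-D1 0.42, which is past 2-fold lower, Psmb8 0.08 and Psmb9 0.03. The median of the 10 was 0.52, beside 0.86 over all genes.

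In H3R26C 5-Aza, Tap1 was 5.70-fold lower at 3.42 against 19.5 CPM, Psmb9 5.41-fold lower at 7.90 against 42.8 CPM and Psmb8 5.29-fold lower at 15.4 against 81.2 CPM. Tap2 was 3.78-fold, Tapbp 2.28-fold and Psmb10 2.01-fold lower. These 6 of the 10 were past 2-fold lower, where 23.5% of 13305 genes were, and none was past 2-fold higher, against 10.5%. H2-K1, at 269 against 514 CPM, and B2m, at 377 against 718 CPM, both had a ratio of 0.52, and H2-D1 0.58. At a limit of 5% these 3 were past 2-fold lower as well, at 0.42, 0.40 and 0.43, which made 9 of the 10, and Psmb8 had 0.021, Psmb9 0.060 and Tap2 0.13. At 0.5% Psmb8 had 0.33, Psmb9 0.38 and Tap1 0.28, and Psmb10, at 0.55, was not past 2-fold. Nlrc5 had 12 UMIs and a ratio of 1.10 [0.56, 1.96]. The median of the 10 was 0.47, beside 0.79 over all genes.

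H2-K1 in muscle-like cells stood at 187 CPM [171, 204] in H3WT 5-Aza and 269 [255, 285] in H3R26C 5-Aza, both above the DMSO libraries. B2m stood at 535 CPM [508, 564] and 377 [359, 395], both below the DMSO libraries, and was found in 68.4% and 72.0% of thinned muscle-like cells. Between the muscle-like cells of the genotypes, H3R26C against H3WT had a ratio of 1.44 for H2-K1 [1.30, 1.61], 1.91 for H2-D1 [1.63, 2.24] and 0.70 for B2m [0.66, 0.75]. None of the 10 genes was found in 17.5% of thinned muscle-like cells of H3WT 5-Aza and 10.3% of H3R26C 5-Aza, against 0.76% and 0.64% of other cells. These levels hold for the limit of 1%, and at 5% the ratio of H2-K1 to other cells in H3WT fell from 0.86 to 0.54. The other cells held 217 CPM of H2-K1 in H3WT 5-Aza and 514 in H3R26C 5-Aza. No free RNA was taken off and doublets were not removed, so the part of RNA from other cells was not tested.

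The constitutive proteasome was not low in the same cells. In muscle-like against other cells, the ratios in H3WT and H3R26C were 1.38 and 1.47 for Psmb5, 1.17 and 1.05 for Psmb6, and 1.79 and 1.27 for Psmb7. None of the 12 other 20S genes was past 2-fold, against 13.8% and 10.5% of all genes higher and 18.8% and 23.5% lower. The share of Psmb8 in its pair was 2.13% in H3WT and 3.42% in H3R26C muscle-like cells, that of Psmb9 1.22% and 2.76%, and that of Psmb10 19.95% and 16.7%. Interferon-stimulated genes were low too, with 16 of 21 past 2-fold lower in H3WT and 22 of 23 in H3R26C, against 18.8% and 23.5% of all genes. Irf1 had ratios of 0.37 and 0.40, and Psme1 0.38 and 0.37. The sum of leukocyte markers was 25.3 and 43.3 CPM in muscle-like cells, against 24.1 and 33.2 in the other cells.

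**Figure D5:**
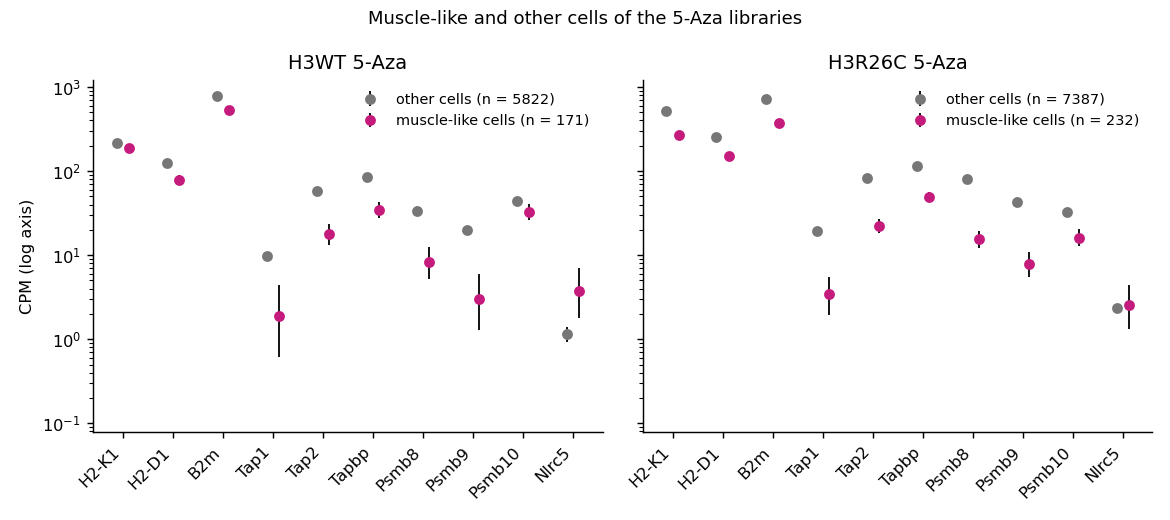
CPM of the 10 genes on a log axis in muscle-like and other cells of the H3WT 5-Aza (left) and H3R26C 5-Aza (right) libraries, as points with exact 95% Poisson intervals. Tap1, Tap2, Psmb8 and Psmb9 lie farther below the other cells than the heavy chains and B2m do in both libraries, and Nlrc5 does not lie below.

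By the profile over the 4 libraries, the genes nearest to the mean of the 10, out of 9232 others with at least 10 CPM, were Kif20a, a mitotic kinesin, with a root mean square difference of 0.02 on the centred log2(CPM + 1) scale, Rell1 (0.03) and Ppa1 (0.03). The 10 genes themselves lay between 0.13 (Tap1) and 0.69 (H2-K1) from their own mean, so the mean stands for no single gene among them. The likeness covers 4 libraries and no replicate.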

How the data were processed

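Single-cell RNA of C3H10T1/2 progenitors was measured on the 10X platform in 4 libraries, 1 per condition. The authors made the deposited UMI counts per gene and barcode with Cell Ranger (6.1.0 in the file headers) on mm10; they are whole numbers, not normalized, and the study's cell filter had not been applied. The UMIs of a gene were added over the filtered cells of a library and divided by the UMIs of all genes. No pseudocount was used in ratios; a library at 0 would have entered at 3 counts. Shares were taken after random thinning to 5000 UMIs. Doublets were not removed. Intervals cover counting error only. On simulated counts, the ratio script was tested on known changes. Alternatives changed the filter, fold limit, scaling, pseudocount, thinning, cell filter and muscle-like limit. The members and the lists were chosen with earlier results of these data known. Named pathway genes were the 3 largest ratios of at least 2-fold above 10 CPM per comparison, with Psmb5, Psmb6, Psmb7, Irf1 and Rfx5; 1 gene of the rule is not reported here. Python 3.11.15, numpy 2.4.6, scipy 1.17.1, pandas 2.3.3 and matplotlib 3.10.9 were used.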

Additional observations from a re-analysis of the deposited data

How the results depend on the processing

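No paired analysis was possible because there was a single library of every condition, so that none could be left out either. Of 124 counts of class I genes past the fold limit under alternatives, 118 stayed within 1.5 times the reported count, a wide margin for small counts. The count of 4 genes higher in H3R26C against H3WT with 5-Aza became 6 in cells other than muscle-like ones. There Tap1 had 2.01 and Nlrc5 2.02. The count of 1 gene higher in H3R26C against H3WT with DMSO became 0 with a pseudocount of 1 CPM, with the mean of per-cell CPM and with median of ratios scaling. It became 2 with cells thinned to 5000 UMIs and 6 at 1.5-fold, where the lowest of the 6, Tap2, lay above 92.6% of all genes. The count of 1 gene (Nlrc5) higher in muscle-like cells of H3WT 5-Aza became 0 at a minimum of 10 CPM. Of 500 single ratios under alternatives, 396 stayed within the counting interval, 21 moved by over 1.5 times and 1 turned direction, that of Nlrc5 in muscle-like cells of H3R26C 5-Aza, from 1.10 to 0.98 with thinning. Nlrc5 in H3WT after 5-Aza was 1.57 with the pseudocount and 5.57 with thinning, which left 4 DMSO cells with a UMI of it. Most of these moves came with another limit of sarcomeric RNA for muscle-like cells. At 5%, Psmb9 had a ratio of 0.03, Psmb8 0.08, Tap2 0.14, Tapbp 0.26, H2-D1 0.42 and H2-K1 0.54 in H3WT, and Psmb8 0.021, Psmb9 0.060 and Tap2 0.13 in H3R26C. At 0.5%, Tap1 had 0.35 in H3WT and 0.28 in H3R26C, where Psmb8 had 0.33 and Psmb9 0.38. With thinning, Tap1 in muscle-like cells had 0.13 in H3WT and 0.093 in H3R26C, Nlrc5 2.00 in H3WT and Psmb9 0.28 in H3R26C. The causes were not tested. With totals free of mitochondrial, ribosomal protein and sarcomeric genes, the median over all genes in muscle-like cells of H3R26C 5-Aza shifted by 0.16 on the log2 scale. Leaving out cells with any of 7 leukocyte markers was chosen after seeing the data. A spread between cultures was not measured, so no difference here could be set against one.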

Other observations

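Ifng, which encodes interferon gamma and was chosen after its values were seen, had no UMI in either DMSO library, 5 UMIs in H3WT 5-Aza and 10 in H3R26C 5-Aza. Of these, 4 of 5 and 7 of 10 were in muscle-like cells, which gave 1.51 CPM [0.41, 3.87] and 1.49 CPM [0.60, 3.08] there. At these counts no ratio to the other cells is given.

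Among the guanylate-binding proteins, 3 were past 2-fold higher in muscle-like than in other cells of both 5-Aza libraries, Gbp4 (5.10-fold in H3WT and 4.94-fold in H3R26C), Gbp6 and Gbp9, while Gbp2, Gbp3, Gbp7, Igtp and Iigp1 were past 2-fold lower in both. These genes were named after their values were seen. Over all genes, 13.8% in H3WT and 10.5% in H3R26C were past 2-fold higher in muscle-like cells, and 18.8% and 23.5% past 2-fold lower. The muscle-like groups held 171 and 232 cells, so the ratios rest on few cells.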
